A study of Homo sapiens with 18 samples.

Results

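The HOX clusters carry, besides the homeobox genes that give cells their position along the body axis, a set of long noncoding RNAs (lncRNAs) transcribed from between and across those genes. Of the 57133 genes in the count table, 10 were taken by name as HOX cluster lncRNAs. They were HOTAIRM1, HOXA-AS2, HOXA-AS3 and HOTTIP in HOXA, HOXB-AS1 and HOXB-AS3 in HOXB, HOXC-AS1 and HOTAIR in HOXC, and HAGLR and HOXD-AS2 in HOXD. No value of the table entered the rule, though the set was drawn up with earlier results of these data known, and all 10 had a row in the table.

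The samples were PGP1 cells, a human induced pluripotent stem cell (iPSC) line, grown in mTeSR1 medium on Matrigel. The 3 groups were WT cells, PCGF6-KO clone 1 and PCGF6-KO clone 2, with 2 RNA-seq libraries each, and all 3 groups shared the line and the medium. PCGF6 is the subunit that defines PRC1.6, a noncanonical Polycomb repressive complex 1, and it was deleted with CRISPR-Cas9 and a pair of guide RNAs to exon 1. Each PCGF6-KO group was 1 edited clone, so a difference between a clone and WT holds for that clone, and nothing in the sources used here says that the libraries of a group came from separate cultures. The p-values therefore measure only the spread between libraries. In PCGF6-KO against WT the 4 libraries of both clones were treated as replicates of 1 group, so there the spread includes the difference between the clones.

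In cells of the early embryo and in pluripotent cells, HOX clusters are covered by Polycomb marks and silent. They open from the 3′ end of the cluster (HOX1 side) toward the 5′ end (HOX13 side) as the axis elongates under WNT, FGF and retinoic acid signals and the CDX factors. Several of the lncRNAs have been assigned roles in that control. HOTAIR has been described as a scaffold for PRC2 and for the LSD1 (KDM1A) complex, HOTTIP as a partner of WDR5 at the 5′ end of HOXA, and HOTAIRM1 as a transcript induced by retinoic acid and during myeloid maturation. HAGLR lies between HOXD1 and HOXD3, and a short reading frame of HOXB-AS3 has been described as coding for a peptide.

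All 10 lncRNAs were antisense to the coding HOX genes around them, and the 9 whose partner is given here had a transcript start close to that of a coding gene on the other strand. In GENCODE v44 (GRCh38), their shortest distance between a start of the lncRNA and a start of a coding HOX gene ran from 56 bp to 358 bp. It was 56 bp for HOXD-AS2 and HOXD3, 77 bp for HAGLR and HOXD1, and 91 bp for HOXA-AS2 and HOXA3. For HOTAIR and HOXC11 it was 112 bp, for HOXA-AS3 and HOXA3 139 bp, and for HOXC-AS1 and HOXC9 151 bp. HOXB-AS3 and HOXB3 were 179 bp apart, HOTTIP and HOXA13 346 bp, and HOXB-AS1 and HOXB2 358 bp. These pairs are used throughout, and HOXA3 serves as the partner of both HOXA-AS2 and HOXA-AS3.

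The lncRNA genes spread over the 4 clusters and differed in size. HOTAIRM1 lies at chr7:27095647-27100265, HOXA-AS2 at chr7:27107777-27134302, HOXA-AS3 at chr7:27129977-27155928 and HOTTIP at chr7:27198575-27207259. HOXB-AS1 lies at chr17:48543551-48551250 and HOXB-AS3 at chr17:48549630-48606414. HOXC-AS1 lies at chr12:53999022-54000010 and HOTAIR at chr12:53962308-53974956. HAGLR lies at chr2:176164051-176188958 and HOXD-AS2 at chr2:176121611-176137098. The share of annotated exon bases that overlapped exons of coding genes was 0% for HOTAIR and HOXC-AS1, 1.7% for HOTTIP, 5.5% for HAGLR and 13.1% for HOXA-AS2. It was higher for HOXB-AS1 (29.6%), HOXB-AS3 (30.1%), HOXA-AS3 (39.1%) and HOXD-AS2 (49.3%). The strand setting of the counting is not given in the sources used here, so for every lncRNA with shared exon bases, and for HOXA-AS2 and the last 4 over the largest shares, reads from the antisense coding exons cannot be told apart from their own. HOXA3, which shares exon bases with HOXA-AS2, had 111 to 194 counts in the PCGF6-KO libraries. Counted over the exons of any other annotated gene, coding or not, the share was 44.9% for HOTAIRM1, 20.1% for HOTTIP, 13.8% for HAGLR and 5.3% for HOTAIR. The effect of these overlaps on the counts was not tested.

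Promoter sequences are shown for the 3 lncRNAs whose RefSeq windows differed most in base composition or held a searched motif. A window runs from 250 bases before to 50 bases after the start, and 7 of the 10 lncRNAs had at least 1 (10 windows in all, of 35116). HOTAIR, HOTAIRM1 and HOXC-AS1 had none in the table used. The sequences are written 5′ to 3′ on the strand of the lncRNA (RefSeq, GRCh38.p14), with capitals for a searched motif. The first one stops at the HOXD1 start.
HAGLR, chr2:176188523-176188667, minus strand: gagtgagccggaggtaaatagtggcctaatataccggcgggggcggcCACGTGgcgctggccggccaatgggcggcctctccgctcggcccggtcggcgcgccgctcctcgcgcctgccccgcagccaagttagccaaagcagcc
HAGLR, chr2:176178080-176178379, minus strand: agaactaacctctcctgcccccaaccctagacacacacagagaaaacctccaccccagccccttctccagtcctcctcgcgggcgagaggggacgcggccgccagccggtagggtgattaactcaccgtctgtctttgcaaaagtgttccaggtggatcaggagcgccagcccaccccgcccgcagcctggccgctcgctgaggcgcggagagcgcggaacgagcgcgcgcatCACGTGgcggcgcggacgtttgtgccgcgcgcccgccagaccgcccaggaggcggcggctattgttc
HOXA-AS2, chr7:27121669-27121968, plus strand: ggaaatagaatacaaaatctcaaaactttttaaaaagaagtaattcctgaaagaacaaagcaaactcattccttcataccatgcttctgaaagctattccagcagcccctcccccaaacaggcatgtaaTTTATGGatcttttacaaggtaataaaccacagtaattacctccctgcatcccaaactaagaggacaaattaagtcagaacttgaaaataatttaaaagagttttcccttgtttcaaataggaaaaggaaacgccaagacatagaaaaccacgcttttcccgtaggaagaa
HOTTIP, chr7:27200171-27200470, plus strand: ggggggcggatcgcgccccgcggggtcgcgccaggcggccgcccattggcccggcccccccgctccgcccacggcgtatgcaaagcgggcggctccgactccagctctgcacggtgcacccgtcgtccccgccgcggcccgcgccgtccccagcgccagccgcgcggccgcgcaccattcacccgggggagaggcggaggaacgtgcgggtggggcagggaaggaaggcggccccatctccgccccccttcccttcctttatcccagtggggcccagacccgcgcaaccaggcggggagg

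The capitals in the HAGLR sequences mark CACGTG, the E-box read by MAX, a DNA-binding subunit of PRC1.6. Of the 4 HAGLR windows, 2 held it, and 7.26% of all windows did. In the first sequence the E-box sits between the paired starts, 43 to 48 bases before the HAGLR start and 48 to 53 bases before the HOXD1 start. In the second it begins 17 bases before the start. The capitals in HOXA-AS2 mark TTTATGG, a CDX motif found in 2.54% of all windows, which begins 121 bases before the start. None of the 10 windows held GCGGGAA (E2F6, in 6.55% of all windows), CTTTGAT or CTTTGAA (TCF/LEF, 2.62% and 4.43%), the other CDX form TTTATTG (4%), or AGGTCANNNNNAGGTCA (retinoic acid response element, 0.0057%). Both strands were searched and no motif contains another. The windows differed widely in composition. The HOTTIP window had 78% G+C and 41 CpG, the 4 HAGLR windows had 67.7% to 77.3% and 31 to 45 CpG, and the HOXA-AS2 window had 36% and 3 CpG. The median of all windows was 58.7% and 14 CpG. A letter match describes the sequence and says nothing about binding in these cells.

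The libraries held between 15877396 and 18918609 counts. Reads on PCGF6 itself were 268 and 300 (WT), 99 and 103 (clone 1) and 187 and 159 (clone 2). It was lower in both clones, by 1.67 ± 0.14 (SE) on the log2 scale in clone 1 and by 0.77 ± 0.13 in clone 2 (edgeR adjusted p = 1.03e-10 and 1.21e-05). The count covers the whole gene and does not check the deleted part. Of 8 pluripotent cell markers, 7 did not pass in PCGF6-KO against WT, their summed level was 8241 and 8560 CPM (counts scaled to the size of the library) in WT and 7459 to 8133 CPM in PCGF6-KO, and none was at 0. SOX2 was the marker called lower, by 0.69 ± 0.19 (SE) on the log2 scale (edgeR adjusted p = 0.0178). It had 327 CPM in both WT libraries, 246 and 245 CPM in clone 1, and 153 and 166 CPM in clone 2. With each clone set against WT, 0 of the 8 markers were called lower in clone 1 and 1 in clone 2.

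WT human PSCs had almost no reads on the HOX cluster lncRNAs. In both WT libraries 9 of the 10 had 0 counts, and HAGLR had 5 and 1. A count of 0 allows up to 3 counts, which is 0.184 CPM in one WT library and 0.18 CPM in the other and covers counting error only. All 10 lncRNAs had reads in every PCGF6-KO library. For all 10 the lowest PCGF6-KO library lay above the highest WT library (29.5% of all genes tested, which leave out HOTTIP and HOXC-AS1). For HOTTIP the separation is not secure. It had 0.110 CPM in clone 1 replicate 2 and 0.125 CPM in clone 2 replicate 2, below what a WT count of 0 allows. Summed over the 10, the level was 0.307 and 0.0599 CPM in WT, 24.4 and 26.8 CPM in clone 1, and 38.4 and 34.5 CPM in clone 2. In a bulk library, more cells with a transcript and more transcript per cell cannot be told apart.

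The HOXA lncRNAs are taken first, from the 3′ end. HOTAIRM1, at the end of the cluster that opens first, had no reads in either WT library, 147 and 178 counts in the clone 1 libraries and 159 and 164 in those of clone 2. The 4 PCGF6-KO libraries were alike and the clones overlapped. Against a floor of 3 counts over both WT libraries, HOTAIRM1 was at least 99.6-fold higher in PCGF6-KO (edgeR adjusted p = 3.95e-06). This bound and those that follow limit the WT side only. They take the PCGF6-KO counts as observed and leave out their error.

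HOXA-AS2, antisense to HOXA3, had counts of 0 and 0 (WT), 14 and 24 (clone 1) and 46 and 31 (clone 2). Both clone 2 libraries lay above both clone 1 libraries. It was at least 17.7-fold higher in PCGF6-KO (adjusted p = 0.00223). HOXA-AS3, antisense to HOXA3 through HOXA7, had counts of 0 and 0 (WT), 64 and 35 (clone 1) and 48 and 31 (clone 2). The clones overlapped, and it was at least 27.4-fold higher in PCGF6-KO (adjusted p = 0.000179).

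HOTTIP, at the 5′ tip of HOXA beside HOXA13, had the fewest reads. Its counts were 0 and 0 (WT), 9 and 2 (clone 1) and 11 and 2 (clone 2), so that the libraries of a clone differed more than the clones did. HOTTIP was at least 3.69-fold higher in PCGF6-KO. It was removed by the filter on low counts and not tested in the fits reported here. With no filter its edgeR adjusted p was 0.0183. The DESeq2 adjusted p was 0.0322 in PCGF6-KO against WT, 0.0387 in clone 2 and 0.0631 in clone 1, where HOTTIP was not called.

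HOXB-AS3, antisense to HOXB3 through HOXB6, had 658 counts over the 4 PCGF6-KO libraries, beside 648 for HOTAIRM1, which had more in both clone 1 libraries. The HOXB-AS3 counts were 0 and 0 (WT), 135 and 116 (clone 1) and 239 and 168 (clone 2), with clone 2 above clone 1. It was at least 101-fold higher in PCGF6-KO (adjusted p = 7.07e-05). HOXB-AS1, antisense to HOXB2 and HOXB3, had counts of 0 and 0 (WT), 40 and 39 (clone 1) and 32 and 13 (clone 2). It was the only lncRNA of the 10 with both clone 2 libraries below both clone 1 libraries in CPM, and it was at least 19.1-fold higher in PCGF6-KO (adjusted p = 0.000961).

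HOTAIR, between HOXC11 and HOXC12, had counts of 0 and 0 (WT), 7 and 12 (clone 1) and 42 and 33 (clone 2). The clones stood well apart. HOTAIR was at least 14.5-fold higher in PCGF6-KO (adjusted p = 0.0142), and this call was lost without WT replicate 1 (adjusted p = 0.0716) and without WT replicate 2 (0.0735). In the fit with 3 groups each clone was above WT, by at least 5.6-fold in clone 1 and at least 24.1-fold in clone 2 (adjusted p = 0.000472 and 5.86e-08). In a fit of clone 1 and WT alone HOTAIR did not pass the filter and was not tested. HOXC-AS1, which starts beside HOXC9, had counts of 0 and 0 (WT), 6 and 10 (clone 1) and 12 and 9 (clone 2), and was at least 5.69-fold higher in PCGF6-KO. It did not pass the filter either, and with no filter its edgeR adjusted p was 0.00105.

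HAGLR was the only lncRNA with reads in WT, so its fold change could be estimated. Its counts were 5 and 1 (WT), 37 and 58 (clone 1) and 73 and 74 (clone 2), so that the groups did not overlap. The ratio of PCGF6-KO to WT was 18.6 (95% exact interval of the counts 8.42 to 51.2), and the fitted log2 fold change was 4.18 ± 0.60 (SE, adjusted p = 0.000685). The size rests on the few WT reads, since it was 5.68 without WT replicate 1 (adjusted p = 0.00435) and 3.45 without WT replicate 2 (0.0109). HOXD-AS2, whose exons overlap those of HOXD coding genes over 49.3% of their bases, had counts of 0 and 0 (WT), 8 and 14 (clone 1) and 35 and 28 (clone 2), with the clones apart. It was at least 13.1-fold higher in PCGF6-KO (adjusted p = 0.0078).

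Counted together, 8 of the 10 lncRNAs were tested and 8 were called higher in PCGF6-KO. A call needed an adjusted p below 0.05 together with a log2 fold change beyond 0.6 in either direction. Of all 17672 genes tested, 14.9% were called higher and 8.70% lower. The count needs care, because a gene at 0 in WT passes the filter only through its PCGF6-KO reads. Of the 157 tested genes with 0 counts in both WT libraries, 148 (94.3%) were called higher, and 7 of the 8 tested lncRNAs belong to these genes. Against WT, 8 of 8 were called higher in clone 1 (16.0% of all genes tested were higher and 8.80% lower) and 8 of 8 in clone 2 (16.9% and 12.5%). In fits of 1 clone and WT alone, 6 of the 6 lncRNAs tested were called higher in clone 1, where HOTAIR and HOXD-AS2 no longer passed the filter, and 8 of 8 in clone 2. These comparisons share the WT libraries. The median fold change of the 8, with genes at 0 in WT set at their bound, was 18.6, beside a median log2 fold change of 0.00 over all genes.

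The coding HOX genes were higher as well. Of 39 coding HOX genes 33 were tested and 33 were called higher in PCGF6-KO (14.9% of all genes tested were). The same care applies, because 25 of the 33 were at 0 in WT and passed the filter only through their PCGF6-KO reads. Of all tested genes at 0 in WT, 94.3% were called higher. The median of the 33 was 61.2-fold when the 25 genes at 0 in WT were set at their bound. Such bounds follow the number of PCGF6-KO reads, and the sizes of the changes were not compared between the lncRNAs and the coding genes. The 10 lncRNAs made up 7.74% and 8.26% of all reads on lncRNAs and coding HOX genes together in clone 1, and 8.47% and 8.11% in clone 2. Their share was highest in HOXD, at 18.4% to 23.3%, and lowest in HOXC, at 1.61% to 3.57%. In HOXB it was 7.27% to 9.65%.

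The other noncoding genes of the clusters had no reads in WT either. Of 21 names on that list 15 were in the table, all 15 had 0 counts there and 4 were tested. The 4, all called higher in PCGF6-KO, were HOXA10-AS (at least 7.38-fold), HOXA11-AS (at least 13.4-fold), HOXC-AS2 (at least 9.69-fold) and PRAC2 (at least 6.3-fold), which GENCODE v44 lists as protein coding. Their adjusted p-values were 0.00702, 0.00143, 0.00721 and 0.0218. These 4 also passed the filter only through their PCGF6-KO reads, and 94.3% of all tested genes at 0 in WT were called higher. HOXA11-AS, antisense to HOXA11, had 16 and 15 counts in clone 1 and 31 and 25 in clone 2. A further 5 of the 15, HOXC13-AS, MIR10A, MIR196A2, MIR196B and MIR615, had no count in any library. The remaining 6, HOXB-AS2, HOXB-AS4, HOXC-AS3, HAGLROS, MIR10B and MIR196A1, had 5 to 31 counts over the 4 PCGF6-KO libraries together and were not tested.

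Levels between lncRNAs were compared per length, as CPM per kb of the exon length deposited with the counts. HOTAIRM1 (6.09 ± 0.76 CPM per kb, SD, n = 4) and HOXB-AS3 (4.85 ± 1.65) led in PCGF6-KO, and their ranges overlapped. The next 7 each overlapped with their neighbour in the order. They were HOXB-AS1 at 1.09, HOXC-AS1 at 0.881, HOXD-AS2 at 0.851, HAGLR at 0.673, HOTAIR at 0.519, HOXA-AS3 at 0.413 and HOXA-AS2 at 0.309 CPM per kb. HOTTIP came last at 0.0645 ± 0.049 CPM per kb, below the range of HOXA-AS2. Only the steps after HOXB-AS3 and before HOTTIP were larger than the spread between libraries. The SD runs over both clones and so includes the difference between them. The deposited length equalled the GENCODE v44 exon length for 6 of the 10 lncRNAs and differed for HOTAIR, HOXA-AS2, HAGLR and HOXD-AS2.

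Levels followed the position differently in the 4 clusters. In HOXA the lncRNA at the 3′ end (HOTAIRM1) was the highest and the one at the 5′ end (HOTTIP) the lowest. In HOXB the lncRNA nearer the 3′ end (HOXB-AS1) was the lower of the pair. In HOXC and HOXD the ranges of the 2 lncRNAs over both clones overlapped, and those ranges include the difference between the clones. In HOXC the one nearer the 3′ end (HOXC-AS1) had the higher mean in each clone, though from few reads. It had 0.730 (clone 1) and 1.03 (clone 2) CPM per kb, beside 0.197 and 0.840 for HOTAIR. In HOXD the order of the means changed, with 0.502 and 0.845 for HAGLR and 0.416 and 1.29 for HOXD-AS2. Next to HOTTIP, HOXA13 had 62, 83, 131 and 122 counts in the 4 PCGF6-KO libraries, so the 5′ end of HOXA was not without reads.

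The question of whether the clones differ was tested directly. In clone 2 against clone 1, 5 of the 8 tested lncRNAs were called higher and 0 lower (3.73% of all genes tested were called higher and 4.14% lower). HOTAIR differed most, at 2.09 ± 0.41 (log2 difference ± SE, edgeR adjusted p = 0.000518), followed by HOXD-AS2 at 1.63 ± 0.41 (0.00565) and HOXA-AS2 at 1.13 ± 0.36 (0.0291). HOXB-AS3 differed by 0.82 ± 0.16 (0.000501) and HAGLR by 0.75 ± 0.26 (0.0455). The 3 that did not pass were HOTAIRM1 at 0.12 (95% interval -0.21 to 0.45, adjusted p = 0.676), HOXA-AS3 at -0.20 (-0.82 to 0.42, 0.712) and HOXB-AS1 at -0.69 (-1.43 to 0.04, 0.19). The intervals of HOXA-AS3 and HOXB-AS1 are wider than that of HOTAIRM1. HOXB-AS1 stood at -1.38 without clone 2 replicate 1 (adjusted p = 0.0613) and at -0.26 without clone 2 replicate 2 (0.747).

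The calls for HOTAIR and HOXB-AS3 held without any single library, and each of the other 3 was lost without some. With clone 1 replicate 1 left out, 2 lncRNAs were called, and HOXA-AS2 (adjusted p = 0.25), HAGLR (0.361) and HOXD-AS2 (0.0979) were lost. With clone 2 replicate 1 left out, 2 were called again, and the same 3 were lost (0.246, 0.0757 and 0.0651). HAGLR was also lost without clone 2 replicate 2 (0.192). DESeq2 called 2, HOTAIR (0.0292) and HOXB-AS3 (0.0204). By rank alone, both clone 2 libraries lay above both clone 1 libraries for 6 of the 10 lncRNAs (28.9% of all genes tested) and below for 1 (26.6%).

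The paired coding genes gave the following differences between the clones. HOXC11, a posterior HOX factor, had counts of 0 and 0 (WT), 7 and 5 (clone 1) and 25 and 20 (clone 2), and was higher in clone 2 by 2.01 ± 0.49 (log2 difference ± SE, adjusted p = 0.00412), beside 2.09 for HOTAIR. HOXB3 differed by 0.58 and HOXA3 by 0.56, both under the fold threshold, and HOXD1 by 0.50 and HOXB2 by -0.16, neither called. HOXD3 had 14 and 10 counts in clone 1 and 12 and 9 in clone 2, a difference of -0.07 (adjusted p = 0.949), beside 1.63 for HOXD-AS2. The partners of the untested lncRNAs, HOXA13 of HOTTIP and HOXC9 of HOXC-AS1, were both higher in clone 2, by 0.93 (adjusted p = 0.00136 and 0.00914). The difference between an lncRNA and its partner was not itself tested. Over all 33 tested coding HOX genes, 17 were higher in clone 2 and 1, HOXB1, was lower (by 0.83 on the log2 scale, adjusted p = 1.25e-05).

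For the 9 pairs, the share of the lncRNA in the counts of its pair was followed across libraries. It compares libraries for 1 pair and not the levels of the 2 genes, which differ in length. HOXB-AS3 made up 33.1% to 38.3% of its pair with HOXB3 in the 4 PCGF6-KO libraries, although per length its level was 1.93 to 2.42 times that of HOXB3. HAGLR, with 68.5% to 80.4%, had more reads than HOXD1 in all 4 libraries, but per length 0.841 to 1.59 times its level. HOTAIR, with 50.0% to 70.6%, had at least as many reads as HOXC11, and 1.25 to 3.01 times its level per length. HOXA-AS2 made up 11.2% to 19.2% of its pair with HOXA3, HOXC-AS1 9.38% to 21.7% with HOXC9, HOXB-AS1 4.53% to 9.62% with HOXB2, and HOTTIP 1.61% to 12.7% with HOXA13.

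The share of HOXD-AS2 had the widest range of the 9, in percentage points. HOXD-AS2 made up 36.4% and 58.3% of its pair with HOXD3 in clone 1 and 74.5% and 75.7% in clone 2. The intervals of clone 1 replicate 2 and the clone 2 libraries overlapped. Those of clone 1 replicate 1 (17.2% to 59.3%) and clone 2 replicate 2 (58.8% to 88.2%) overlapped as well. HOXA-AS3 made up 36.6% of its pair in clone 1 replicate 1 and 18.0% to 20.6% in the other 3 libraries. HOXD-AS2 also overlaps HOXD8, which had 18 and 32 counts in clone 1 and 33 and 25 in clone 2. The ratio of HOXD-AS2 to HOXD8 counts was 0.444 and 0.438 in clone 1 and 1.06 and 1.12 in clone 2. With HOXD9, whose annotated span overlaps HOXD-AS2 as well, the ratio was 0.145 to 0.239 and the clones overlapped. The ratio of HOXB-AS3 to its HOXB neighbours ran from 2.28 to 2.47 with HOXB5, from 2.42 to 3.32 with HOXB4, and from 0.309 to 0.695 with HOXB2, where the clones stood apart.

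Transcripts of the chromatin proteins that HOX lncRNAs have been described to bind were mostly not called, and protein was not measured. All 19 on that list were tested in PCGF6-KO against WT, 0 were called higher and 1 lower, with a median log2 fold change of -0.10. The lower gene was RBBP7, a histone-binding subunit shared by PRC2 and deacetylase complexes, which fell by 0.66 ± 0.06 (SE) on the log2 scale (adjusted p = 3.1e-05). EZH2, the PRC2 methyltransferase, stood at 115 and 116 CPM in WT and 136 to 149 CPM in the PCGF6-KO libraries, and its log2 fold change of 0.28 was under the fold threshold. WDR5 differed by 0.04 (adjusted p = 0.648) and KDM1A by -0.20 (0.0287). RBBP4 stood at 343 and 358 CPM in WT and 219 to 265 CPM in PCGF6-KO. JARID2 stood at 549 and 575 CPM in WT and 421 to 486 CPM in PCGF6-KO. RCOR1 went the other way, from 58.3 and 58.6 CPM to 71.0 to 75.9 CPM, and none of these 3 was called. Between the clones 0 of 19 were called.

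Of 16 genes on a list of HOX regulators (CDX factors, cofactors, and WNT, FGF and retinoic acid genes), 11 were called higher in PCGF6-KO and 1 lower, with a median log2 fold change of 2.82. CDX2, a direct activator of central HOX genes, had counts of 1 and 1 (WT), 762 and 660 (clone 1) and 1481 and 1169 (clone 2). CDX1 had counts of 0 and 0 (WT), 208 and 139 (clone 1) and 335 and 313 (clone 2). WNT3A, a ligand of the primitive streak, had counts of 0 and 0 (WT), 196 and 147 (clone 1) and 196 and 146 (clone 2). Of the retinoic acid genes, ALDH1A2 (4.52 on the log2 scale), CYP26A1 (3.53), CRABP2 (2.11) and RARB (1.97) were higher. CYP26A1 degrades retinoic acid, while ALDH1A2 makes it. DHRS3, a reductase that lowers its synthesis, stood at 0.44 (adjusted p = 0.0524), RARA at 0.05 (0.745) and RARG at -0.53 (0.0147), which was under the fold threshold. Between the clones, 5 of the 16 were higher in clone 2 and 0 lower. CDX1 differed by 1.03, CDX2 by 1.02, MEIS1 by 0.98, ALDH1A2 by 0.97 and RARB by 1.21, while WNT3A was not called.

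Markers of other cell types moved with the lncRNAs. Of 8 primitive streak and mesoderm markers 7 were tested and 7 were higher in PCGF6-KO. Their summed level was 156 CPM in both WT libraries, 1125 and 1156 in clone 1 and 1307 and 1338 in clone 2, and MESP1, MSGN1 and HAND1 were at 0 in WT. Of 6 definitive endoderm markers 5 were higher, with sums of 13.0 and 13.6 CPM in WT and 124 to 174 CPM in PCGF6-KO, and SOX17 was at 0 in WT. Of 8 fibroblast or mesenchyme markers 7 were higher and THY1 lower, with sums of 838 and 848 CPM in WT and 1730 to 2059 CPM in PCGF6-KO, and DCN, LUM and TWIST1 were at 0 in WT. Of 7 neural progenitor markers 4 were tested and 3 were higher, with sums of 278 and 323 CPM in WT and 605 to 728 CPM in PCGF6-KO, and HES5 was at 0 in WT. NES, also expressed outside the neural lineage, made up nearly all of that sum, at 277 and 322 CPM in WT and 592 to 709 CPM in PCGF6-KO. PAX3 had counts of 2 and 0 (WT), 204 and 217 (clone 1) and 298 and 297 (clone 2). LHX2 had counts of 6 and 3 (WT), 21 and 28 (clone 1) and 34 and 19 (clone 2). PAX6 stayed below 1 CPM in every library, and SOX1 had at most 1 count in any library. Of 7 trophoblast or amnion markers 6 were tested and 4 were higher, with sums of 12.3 and 14.7 CPM in WT and 54.2 to 72.4 CPM in PCGF6-KO, and none was at 0. Between the clones, 4 of the 7 tested streak and mesoderm markers were called higher in clone 2 and 0 lower. HAND1 stood at 1.43 and TBXT at 0.75 on the log2 scale. EOMES went the other way, with 138 and 139 CPM in clone 1 and 89.1 and 103 CPM in clone 2. Also called higher in clone 2 were 3 of 6 endoderm, 3 of 8 fibroblast or mesenchyme and 1 of 4 neural progenitor markers. Of 6 trophoblast or amnion markers 2 were called higher and 1 lower. The levels of 5 lncRNAs were higher in clone 2 as well. The part of these cells in the lncRNA levels was not tested.

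The genes outside the clusters whose pattern was most like that of the 3 lncRNAs with the most reads were found by Pearson's r of log2(CPM + 0.5) over the 6 libraries, among 15378 genes with a mean of at least 1 CPM. They were ZYX, PLXND1 and HES1 for HOXB-AS3 (r = 0.9996, 0.9995 and 0.9994), HMCN1, ZNF516 and HSPA1A for HOTAIRM1 (0.9998, 0.9997 and 0.9995), and MAK16, PI4KAP1 and ARPC1B for HAGLR (0.9994, 0.9986 and 0.9983). With 6 libraries in 3 groups, such values are set mostly by the group means. HES1, a Notch target, had counts of 89 and 91 (WT), 367 and 319 (clone 1) and 423 and 357 (clone 2), and, unlike the lncRNAs at 0, all 9 genes had reads in WT.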

How the data were processed

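RNA-seq libraries of WT PGP1 cells and of 2 PCGF6-KO clones were used (2 each). The authors trimmed reads with Trim Galore (0.6.2, per the submitters' processing notes), aligned them to GRCh38 with HISAT2 (2.1.0), counted them with featureCounts and deposited raw counts per gene with the gene's exon length. The annotation release, strand setting and handling of multi-mapped reads are not given in the sources used here. The 12 ChIP-seq samples were not analysed here.

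Counts were scaled by TMM and tested with glmQLFit and glmQLFTest of edgeR (4.0.16, R 4.3.3) after filterByExpr, with Benjamini-Hochberg adjustment over 17672 genes. The thresholds of the study's methods were kept (adjusted p below 0.05, log2 fold change beyond 0.6 in either direction). PCGF6-KO (4 libraries) was compared with WT in a fit with 2 genotypes, and the clones with WT and with each other in a fit with 3 groups. Folds against a WT of 0 use a floor of 3 counts over both WT libraries and the PCGF6-KO counts as observed. The steps were tested on simulated data, with changes placed only in genes above a minimum mean count. The simulation held no genes silent in WT alone, and no difference between the clones in PCGF6-KO against WT. Positions come from GENCODE v44 and promoters from RefSeq. DESeq2 (1.42.0), other normalizations and filters, a replicate block and leaving out each library were alternatives. The named genes were the 10 lncRNAs, called noncoding HOX cluster genes, coding HOX genes overlapping or nearest to a lncRNA, PCGF6, genes of the lists that were called or needed beside a lncRNA, and the 3 genes most like each of the 3 most abundant lncRNAs. HOXB1 was named after its value was seen. The lncRNAs, gene lists and tests were chosen with earlier results of these data known. Values of some genes on these lists are not reported here.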

Additional observations from a re-analysis of the deposited data

Results flagged for a closer look

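The log2 difference between clone 2 and clone 1, tested as a contrast in edgeR, passed the threshold for 5 of the lncRNAs. It was 2.09 for HOTAIR, 1.63 for HOXD-AS2, 1.13 for HOXA-AS2, 0.82 for HOXB-AS3 and 0.75 for HAGLR, all higher in clone 2. HOTAIR and HOXB-AS3 passed under every alternative that gave a value for them, and the other 3 did not.

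The same contrast passed for 8 coding HOX genes next to the lncRNAs. It was 2.01 for HOXC11, 1.42 for HOXD9, 1.01 for HOXC6, 0.93 for HOXC9, 0.93 for HOXA13, 0.88 for HOXB5, 0.78 for HOXB6 and 0.78 for HOXA5. Of the other noncoding HOX cluster genes it passed for HOXC-AS2 (1.43) and for PRAC2 (1.92). No library stood apart from the other 3 PCGF6-KO libraries in any of the 33 genes examined, with a test that chance passes in about 1 of 20 groups. That test pools both clones. Where the clones differ the values form 2 pairs, so it cannot show that the libraries of a clone agree.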

How the results depend on the processing

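Across RLE and upper-quartile normalization, DESeq2, no filter, the replicate block, other thresholds, other sets of groups and leaving out each library, 67 of 70 alternative values of the counts of called genes stayed within 1.5 times the value reported. The 3 others concern clone 2 against clone 1, where 5 lncRNAs were called, DESeq2 gave 2, and leaving out single libraries gave 2 to 5. Leaving out single libraries gave 8 to 8 lncRNAs in PCGF6-KO against WT, 8 to 10 in clone 1, 8 to 10 in clone 2, and 31 to 33 coding HOX genes. Of the alternative values of single lncRNAs, 368 kept direction and call, 12 lost the call and 2 turned direction, both without clone 1 replicate 1 and neither called, to -0.048 for HOTAIRM1 and 0.26 for HOXA-AS3. Leaving out single libraries gave -0.048 to 0.30 for HOTAIRM1 and -0.54 to 0.26 for HOXA-AS3. Those that lost the call were HOTAIR in PCGF6-KO against WT and HOXA-AS2, HAGLR and HOXD-AS2 between the clones. The cause was not tested. Same-numbered libraries were not shown to be paired (correlation of deviations 0.042, 0.053 and 0.162 over 15104 genes). With the replicate block the counts were 8, 8, 8 and 5 lncRNAs and 33 coding HOX genes. Requiring 10 or more counts in each library left none of the lncRNAs. Low counts limit HOTTIP and HOXC-AS1.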
